A study of Homo sapiens with 3 samples.

Results

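The 11q13 interval of chromosome 11 holds CCND1, the gene of cyclin D1, and a row of neighbours that are often gained together with it in head and neck carcinoma. Its binding sites were taken by position alone, as every summit that the deposited peak lists place between 69000000 and 71000000 on chromosome 11 (hg19), with no use of peak height. A summit is the base at which a peak is highest. This gave 298 of the 61591 listed summits, namely 59 of 21922 in the p63 list and 239 of 39669 in the ZNF148 list. All values come from FaDu, a squamous carcinoma line of the human pharynx grown without treatment, in which chromatin immunoprecipitation with sequencing (ChIP-seq) was done with an antibody to ΔNp63α, with an antibody to ZNF148, and on input DNA without antibody. Per the labels the DNA came from 3 separate ChIP assays, but each antibody has 1 peak list, so no value has a replicate error and nothing below is a test between conditions. The identity of the line cannot be checked from peak positions.

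ΔNp63α is the form of p63 that lacks the first activation domain and maintains basal cells of squamous epithelia, and ZNF148 is a Krüppel-type zinc finger factor with a preference for GC-rich DNA. Cyclin D1 drives cells out of the first gap phase of the cell cycle, and gain of its gene is among the best known lesions of squamous carcinoma. Of the other 8 genes, FGF19, FGF4 and FGF3 encode secreted fibroblast growth factors, ANO1 a calcium-activated chloride channel, FADD the adaptor of death receptors, PPFIA1 the adhesion protein liprin-alpha-1, CTTN the actin regulator cortactin and SHANK2 a scaffold of synapses. Gene positions are known here in Mb to the nearest 1 kb, so distances to genes are good to about 1 kb. CCND1, ANO1, CTTN and SHANK2 have a start and an end, and FGF19, FGF4, FGF3, FADD and PPFIA1 only their lower coordinate.

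The starts of FADD and PPFIA1 carried the ZNF148 peaks next in significance after the top site of the interval, and no p63 peak within 5 kb. Their promoters are shown because the GC box, GGGCGG in either orientation, is a short GC-rich element of the kind that ZNF148 is known to prefer. The sequences are those of RefSeq for GRCh38.p14, plus strand, 250 bases before to 50 after the start, at chr11:70203046-70203345 for FADD and chr11:70270440-70270739 for PPFIA1. Capitals mark GC boxes.
FADD: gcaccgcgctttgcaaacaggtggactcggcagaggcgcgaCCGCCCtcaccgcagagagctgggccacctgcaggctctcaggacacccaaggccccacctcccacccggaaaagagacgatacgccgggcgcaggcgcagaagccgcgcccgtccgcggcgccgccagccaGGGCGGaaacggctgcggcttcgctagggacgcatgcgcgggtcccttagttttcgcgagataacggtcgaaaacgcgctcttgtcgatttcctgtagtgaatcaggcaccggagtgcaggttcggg
PPFIA1: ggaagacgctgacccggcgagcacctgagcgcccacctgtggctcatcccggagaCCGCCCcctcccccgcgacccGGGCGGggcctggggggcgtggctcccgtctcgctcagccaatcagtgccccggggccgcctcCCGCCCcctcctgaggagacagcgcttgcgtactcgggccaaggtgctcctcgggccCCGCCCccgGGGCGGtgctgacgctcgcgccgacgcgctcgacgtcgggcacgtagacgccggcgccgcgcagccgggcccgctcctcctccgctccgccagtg

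The FADD promoter held 2 GC boxes at 66.7% G and C, and the PPFIA1 promoter 5 at 77.7%. The RefSeq promoters of ANO1 and FGF3, not shown, held 4 GC boxes each, at 76% and 66.7% G and C. GC boxes were thus not particular to the promoters shown. The median of all 35116 RefSeq promoters of this length was 58.7% G and C (quartiles 47 and 68%), and 45.0% of them held a GC box. A second G-rich word, GGGAGGG in either orientation, occurred 0 times in FADD and 1 time in PPFIA1 and in 26.6% of all promoters. CATG, the core of many half-sites of the p53 family, occurred 1 time in FADD and 0 times in PPFIA1, and in 54.9% of all promoters. Neighbouring matches of these words can share bases. Since the peaks are on hg19, whether these exact bases lie under the summits was not determined.

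The interval stood out first by its local background, the number of fragments that the peak caller expected at a summit in the absence of binding. The deposited fold and p value of each summit are together reproduced by 1 whole number of fragments, the pileup, and 1 background, and this held for 100% of the rows of both lists. The lowest background in a list, its floor, was 1.27 fragments for p63 and 0.386 for ZNF148, and 30.9% of p63 and 43.1% of ZNF148 summits genome-wide were at it. In the interval the median background was 14.5 fragments for p63 and 3.46 for ZNF148, against 1.77 and 0.422 over all summits on chromosomes 1 to 22 and X. These are ratios of 8.18 and 8.19. No summit of the interval was at the floor, and the lowest were at 3.50 times the floor for p63 and 3.14 times for ZNF148. Outside the interval, 0.245% of p63 and 0.250% of ZNF148 summits had a background at or above the interval's median.

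**Figure D1:**
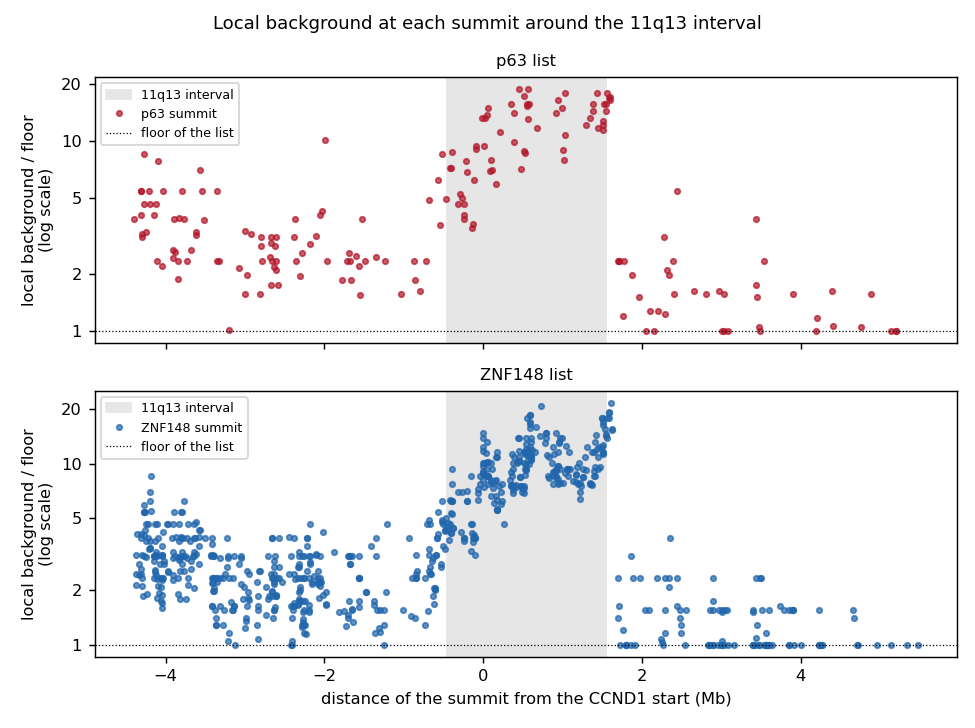
Local background at each summit, in multiples of the lowest value of its list (log scale), against distance from the CCND1 start in Mb, for p63 (upper panel) and ZNF148 (lower panel). Grey marks the 11q13 interval, where medians were 11.4 and 8.96 times the floor, and both panels drop sharply just beyond its right border.

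By medians of 0.5 Mb steps the background of both lists was highest from 70 to 71 Mb. It stayed high just past the interval before an abrupt fall. The ZNF148 summit at 71067276, beyond the interval, was at 21.7 times the floor, against a highest value of 21.0 times inside. The p63 summit at 71010549 was at 18.0 times, against 18.8 times. In steps of 0.5 Mb, the p63 median was 2.34 times the floor at 68 to 68.5 Mb, 3.61 at 68.5 to 69 Mb, 6.87 at 69 to 69.5 Mb, 9.90 at 69.5 to 70 Mb, 14.8 at 70 to 70.5 Mb and 13.8 at 70.5 to 71 Mb. The ZNF148 medians over the same steps were 1.55, 3.03, 6.21, 8.17, 11.2 and 9.39 times the floor. The last high p63 summit, at 71053417, was at 16.4 times the floor, and the next, at 71161015, at 2.34 times. For ZNF148 these were 71083100 with 15.4 times and 71159127 with 1.40 times. The highest of the next 5 summits was at 2.34 times the floor for p63 and at 2.33 times for ZNF148. In the denser ZNF148 list the fall thus lay between 71083100 and 71159127. Windows of 2 Mb with 10 or more summits were taken in steps of 1 Mb, so neighbouring windows overlap. Among them the interval ranked 6 of 2000 by median p63 background and 8 of 2244 by median ZNF148 background. For p63, the windows above it lay between 57 and 63 Mb of chromosome X and at 70 to 72 Mb of chromosome 11, which overlaps the interval. The highest ZNF148 window was at 58 to 60 Mb of chromosome 6. At the closest p63 and ZNF148 pair of the interval the p63 background was 3.28 times the ZNF148 one, and the p63 floor was 3.28 times the ZNF148 floor. Over all 2924 p63 summits with a ZNF148 summit within 25 bp, this ratio had a median of 3.28 (quartiles 3.28 and 3.30). The near-constant ratio means that the backgrounds of the 2 lists are not counted here as independent observations. Copy number was not measured by other means, and its part in this background was not tested.

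The height of the sites has to be read against that background. The median pileup was 96 fragments for p63 in the interval, against 38 over all p63 summits, and 36 for ZNF148 in the interval, against 14 over all ZNF148 summits. The pileups were thus 2.53 and 2.57 times the overall ones, while the backgrounds were more than 8 times. The median fold enrichment, which is (pileup + 1) over (background + 1), was 7.08 for p63 (quartiles 4.98 and 10.9), against 13.2 over all (8.39 and 24.3). For ZNF148 it was 8.35 (5.70 and 14.8), against 10.0 over all (7.21 and 16.6). Without the added 1, the median ratio of pileup to background was 7.59 for p63 in the interval, against 20.4 over all, and 10.6 for ZNF148, against 28.5 over all. By their medians, folds in the interval were thus lower than over all summits, and pileups higher.

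**Figure D2:**
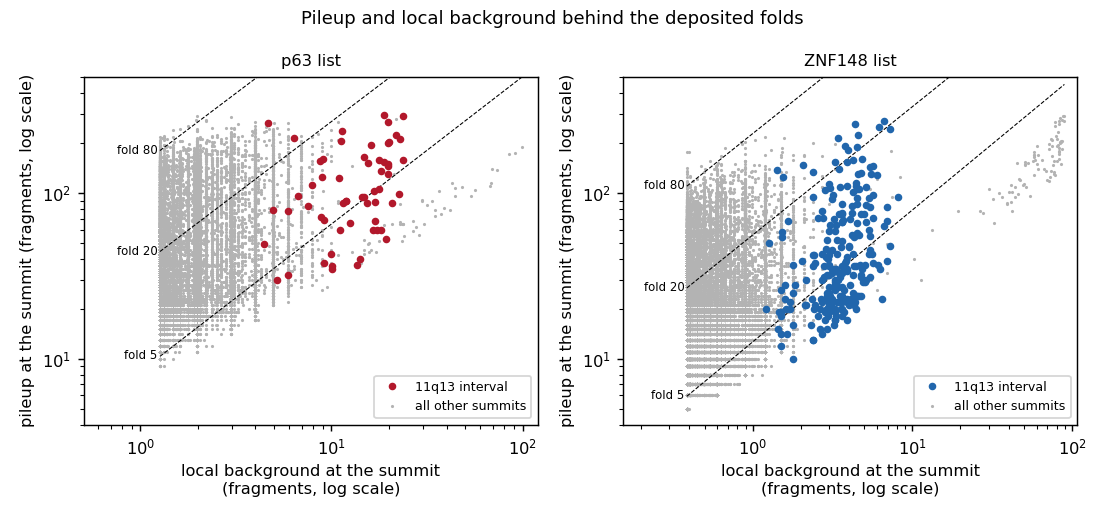
Pileup against local background at each summit, in fragments on log axes, for p63 (left) and ZNF148 (right); coloured points are the 11q13 interval, grey points all other summits, and dashed lines join equal folds. The interval's points lie to the right of nearly all others, and their lower quartiles of fold were 4.98 for p63 and 5.70 for ZNF148, against 8.39 and 7.21 over all summits.

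Limits on the fold or on a rescaled p value left fewer sites in the interval, but still more per Mb than over all. Such limits can only remove summits, and remove more where the background is high, so the lower count itself was bound to follow. As deposited, the interval held 29.5 p63 and 119.5 ZNF148 summits per Mb, against 7.37 and 13.4 over the analysed chromosomes, and ranked 3 of 2897 and 3 of 2896 windows of 2 Mb. Only 17 of the 59 p63 summits had a fold of 10 or more, or 28.8% (95% Wilson interval 18.8 to 41.4%), against 64.9% of all p63 summits. For ZNF148 it was 98 of 239, or 41.0% (35.0 to 47.3%), against 50.1% of all. By the number of such summits the interval ranked 306 of 2897 for p63 and 11 of 2896 for ZNF148. Per Mb, there were 8.5 such p63 summits in the interval against 4.78 over all, and 49 such ZNF148 summits against 6.71. As a further description, pileup and background were both scaled to the list's median background, and the p value was recomputed. Every summit of the interval was scaled down, while summits elsewhere with a background below the median were scaled up. Summits at or below the median background stayed by construction, so the shares over all summits were bound to be high. Then 41 of 59 p63 summits (69.5%) and 105 of 239 ZNF148 summits (43.9%) still reached the lowest −log10 p of their list, 5.69 and 5.42, against 98.5% and 96.0% of all summits. By this count the interval ranked 28 for p63 and 71 for ZNF148, with 20.5 against 7.25 p63 summits per Mb and 52.5 against 12.9 for ZNF148. The Wilson intervals cover counting error only and treat neighbouring peaks as independent.

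ZNF148 had summits within 5 kb of the span or known coordinate of all 9 genes. Of the length of the interval, 24.3% lay within 5 kb of a p63 summit and 59.7% within 5 kb of a ZNF148 summit, and SHANK2 and ANO1 are long, so these counts of genes are a description only. Of the 10 most significant ZNF148 summits, 3 were at CCND1, 2 at FADD and 1 at PPFIA1. p63 summits lay within 5 kb of CCND1, FGF3, ANO1 and SHANK2 only, and none was within 5 kb of the start position used here for CCND1, ANO1, FADD, PPFIA1, CTTN or SHANK2. Of the 10 most significant p63 summits, 4 lay in ANO1, 2 in SHANK2 and 2 before CCND1. ZNF148 had 4.05 summits per p63 summit in the interval, against 1.82 over all.

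**Figure D3:**
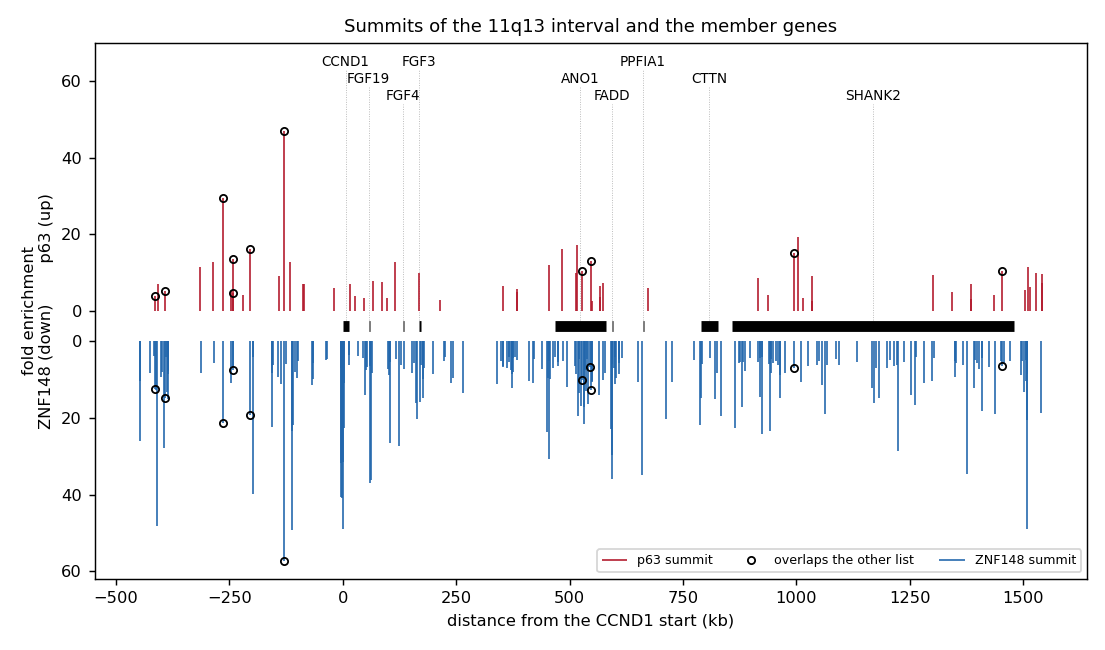
Fold enrichment of each p63 summit (up) and ZNF148 summit (down) against distance from the CCND1 start in kb; black bars are the member genes or their known position, and circles mark summits whose peak overlaps the other list. The tallest pair, with folds of 47.0 and 57.4, stands 130.5 kb before CCND1, and 7 of the 11 circled p63 summits lie to the left of CCND1.

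At CCND1, ZNF148 formed a dense group with no p63 summit beside it at the gene's start. Within 5 kb of the gene lay 12 ZNF148 summits, 9 of them with a fold of 10 or more, and 10 were within 5 kb of its start. The most significant, 0.808 kb into the gene, had a fold of 48.9 and a −log10 q of 291 and ranked 23 in the ZNF148 list. It belonged to a peak of 2311 bp (69456059 to 69458369) with 2 further summits of folds 22.5 and 10.8. A peak of 472 bp at 69455532 to 69456003, with its summit at 69455796 just before the start, had a fold of 31.6. Another, of 1912 bp at 69452644 to 69454555, had 4 summits of folds 31.7, 40.6, 40.8 and 27.7. The background of these 12 summits was 7.45 to 14.7 times the floor. The nearest p63 summit, 2.50 kb beyond the gene's end, had a fold of 7.07 and a pileup of 90 fragments over a background of 11.9.

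The stretch of 456 kb before CCND1 held the 2 p63 summits of highest fold in the interval and 7 of its 11 shared p63 summits. In all it held 17 p63 summits, with a median fold of 7.07 and 7 of them at 10 or more, and 49 ZNF148 summits. The median p63 fold was higher in ANO1, at 9.93. The p63 summit at 69325468, 130.5 kb before the gene, had a fold of 47.0, the highest of the interval, with 265 fragments over a background of 4.66, and ranked 33 in the p63 list. The ZNF148 summit beside it, 18 bp away at 69325486, had a fold of 57.4, the highest ZNF148 fold of the interval, with 138 fragments over 1.42. The next p63 summit by q, at 69192577 and 263 kb before the gene, had a fold of 29.3, and its ZNF148 neighbour, 146 bp away, a fold of 21.4. A further pair 204 kb before the gene, 69 bp apart, had folds of 16.2 for p63 and 19.2 for ZNF148. The 2 most distant pairs of the stretch were weak for p63, with folds of 5.06 and 3.85, beside ZNF148 folds of 14.8 and 12.5. The median background here was 6.25 times the floor for p63 and 5.29 times for ZNF148, lower than from CCND1 to ANO1, where the medians were 11.2 and 8.34 times.

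Around the 3 growth factor genes, p63 had 6.82 summits per 100 kb between CCND1 and FGF19, 5.33 between FGF19 and FGF4 and 2.70 between FGF4 and FGF3, and ZNF148 had 15.9, 14.7 and 13.5. All 3 genes are transcribed toward lower coordinates, so the known coordinate is the end away from the start. The 5 kb around it need not reach the start, and summits at the starts were not assessed. Near FGF19, the strongest of 3 ZNF148 summits lay 2.53 kb above its known coordinate, with a fold of 36.9 and rank 112 in the list. A ZNF148 summit of fold 36.1 at 69519145, farther above, fell outside the 5 kb. FGF4 had 2 weak ZNF148 summits, with folds of 6.19 and 7.19. FGF3 had 3, the best by q with a fold of 15.8, and it alone of these 3 genes had a p63 summit within 5 kb of its known coordinate. That summit lay 0.479 kb below the known coordinate of FGF3, with a fold of 9.98, 84 fragments over a background of 7.51, and the nearest ZNF148 summit 2.08 kb away. The nearest p63 summits to FGF19 and FGF4 were 9.15 kb and 17.8 kb from their coordinates, with folds of 7.78 and 12.7.

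ANO1 held the largest number of p63 summits per length among the 4 genes with a known span. Its 112 kb contained 9 p63 and 24 ZNF148 summits, or 8.04 and 21.4 per 100 kb. The most significant p63 summit in the gene, at 70002605, had a fold of 12.9 with 268 fragments over a background of 19.8, and a ZNF148 summit of fold 12.7 lay 286 bp away. Further p63 summits in ANO1 had folds of 17.1 at 69972837, 16.1 at 69938529 and 9.93 at 69970588. A p63 summit 14.1 kb before the gene, at 69909872, had a fold of 11.9 but 293 fragments, over a background of 23.7, level with the highest p63 background of the interval. The strongest ZNF148 summit in ANO1 had a fold of 21.5. At the start position used here for ANO1 the nearest ZNF148 summit had a fold of 4.20. The RefSeq promoter entry of ANO1 lies farther from FADD than that position, so neither this value nor the lack of p63 within 5 kb speaks for the RefSeq start.

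From FADD to CTTN, ZNF148 marked the gene starts and p63 was nearly missing. At FADD, 7 ZNF148 summits lay within 5 kb. The strongest, 1.14 kb beyond the start, had a fold of 36.0 with 273 fragments over a background of 6.61 and ranked 13 in the list, and another of the same peak, 0.244 kb beyond the start, had a fold of 29.7. At PPFIA1, 1 summit lay 0.385 kb before the start, with a fold of 34.9, 249 fragments over 6.16 and rank 22. At CTTN, the strongest of 6 lay 0.396 kb before the start, with 146 fragments over 5.69 and rank 735. The nearest p63 summits were 18.3 kb from the FADD start, with a fold of 7.27, and 12.2 kb from the PPFIA1 start, with a fold of 6.03. CTTN lay in a stretch of 242 kb with no p63 summit, from 70129220 to 70371390. Both backgrounds were high here, at a median of 14.5 times the floor for the 4 ZNF148 summits between PPFIA1 and CTTN and at 11.7 times for the 1 p63 summit there.

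SHANK2, the longest of the genes at 622 kb, held 13 p63 and 66 ZNF148 summits, or 2.09 and 10.6 per 100 kb. Its most significant p63 summit, at 70449949, had a fold of 15.0 with 295 fragments over a background of 18.8. A weaker ZNF148 summit of fold 6.93 lay 33 bp from it. The p63 summit with the largest fold in the gene, 19.2, lay at 70460567, and its nearest ZNF148 summit was 6.07 kb away. The ZNF148 summit with the highest fold in SHANK2, at 70831743, had a fold of 34.8 and rank 104. The most significant ZNF148 site of the interval lay 27.7 kb beyond the upper coordinate used here for SHANK2. Its peak spanned 1155 bp, from 70962898 to 70964052. The summit had a fold of 48.9, with 261 fragments over a background of 4.35, and rank 11 in the list. A p63 summit of fold 11.5 stood 2.92 kb from that ZNF148 summit, and the 2 peaks did not overlap. No ZNF148 summit lay within 5 kb of that upper coordinate, the side of SHANK2 on which its transcription starts. The start of SHANK2 was not checked against RefSeq, so this does not speak for a lack of ZNF148 at its promoter.

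**Figure D4:**
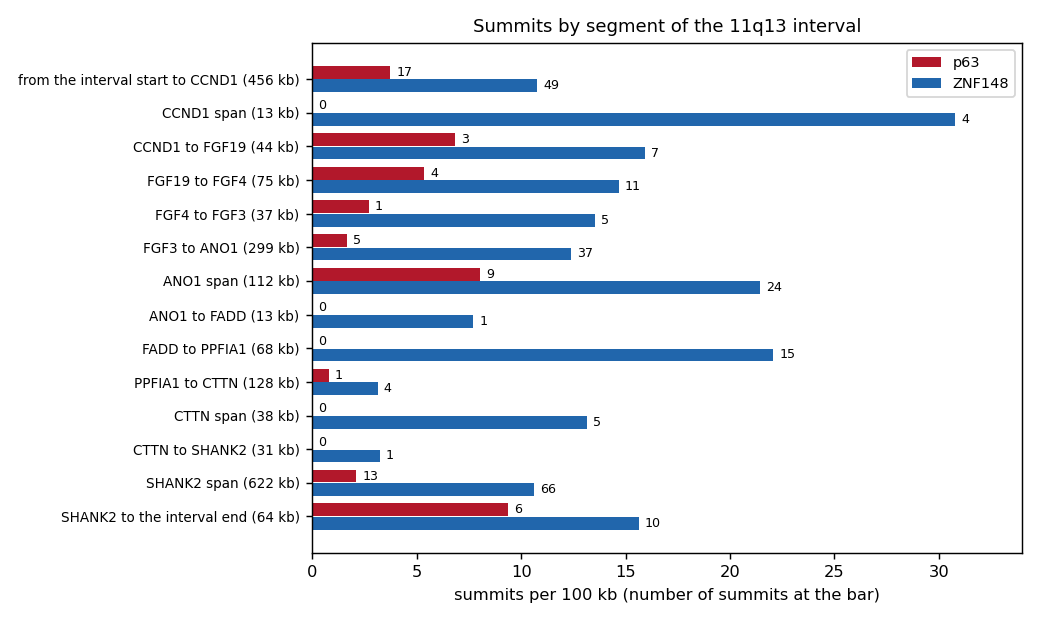
Summits per 100 kb in each segment between and within the member genes, for p63 and ZNF148, with the number of summits at each bar. ZNF148 was denser than p63 in every segment, by 30.8 against 0 per 100 kb across the 13 kb of CCND1 and by 21.4 against 8.04 across ANO1.

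Few summits of the 2 proteins lay within 25 bp of each other in the interval, while the overlap of p63 peaks was near the overall share. Of the 59 p63 summits, 11 lay in a peak sharing 1 bp or more with a ZNF148 peak, or 18.6% (10.7 to 30.4%), against 21.4% of all p63 summits. In the other direction, 11 of 239 ZNF148 summits overlapped a p63 peak, or 4.60% (2.59 to 8.05%), against 11.9% of all. Both directions count the same overlaps, and the interval had 4.05 ZNF148 summits per p63 summit, against 1.82 over all. The ZNF148 shares here and below depend on that ratio, so their lower values are not a separate observation of less sharing. Summits within 25 bp of each other were rarer still, at 1 of 59 p63 summits, or 1.69% (0.300 to 9.00%), against 13.5% of all, and at 1 of 239 ZNF148 summits, or 0.418% (0.0739 to 2.33%), against 7.41% of all. That single close pair is the one 130.5 kb before CCND1. Among p63 summits with a fold of 10 or more, 8 of 17 overlapped a ZNF148 peak, or 47.1% (26.2 to 69.0%), against 27.9% of all such p63 summits. For ZNF148 it was 7 of 98, or 7.14% (3.50 to 14.0%), against 20.03% of all such ZNF148 summits. Of the 17 p63 summits, 1 had a close summit, or 5.88% (1.05 to 27.0%), against 19.0% of all such p63 summits. The 11 overlapping p63 summits had a median distance of 110 bp to the ZNF148 summit, with a range of 18 to 399 bp. Those at 69214075 and 69214382 belong to the same p63 peak and were paired with the same ZNF148 summit, so they are not separate overlaps. The summit at 69214382 gave the 399 bp.

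Overlapping p63 summits had the higher median fold. The median fold of the 11 shared p63 summits was 12.9 (quartiles 7.70 and 15.6), while the 48 unshared ones reached 7.06 (4.77 and 9.71). The shared p63 summits also stood on a lower background, at a median of 7.22 times the floor, against 12.2 times for the unshared ones, and its part in the difference was not tested. The median over the 11 shared ZNF148 summits was 12.5 (7.27 and 17.0), while the 228 unshared ones reached 8.27 (5.54 and 14.7), at 8.71 and 8.96 times the floor. Although exact sharing was rare, p63 summits of the interval lay near ZNF148 ones, at a median distance of 2.08 kb, against 11.6 kb over all p63 summits. A ZNF148 summit lay within 5 kb of 43 of the 59, or 72.9%, against 38.3% of all p63 summits. ZNF148 summits were also denser in the interval, at 119.5 per Mb against 13.4 over all, and the part of density in these distances was not tested.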

How the data were processed

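The authors deposited 1 peak list per antibody; no peak list of the input was used. Tools listed in the submitters' processing notes, without role or settings, are MACS2 2.2.6, Bowtie2 2.3.4.3, MultiQC 1.12, SAMtools 1.7 and FastQC 0.11.9, with hg19 as the build. Which library served as control is not stated. The deposited fold (a ratio at the summit) and the −log10 of p and of q are the authors' own, as deposited; the deposited score was not used. The columns follow the usual narrowPeak layout. Rows on chromosomes 1 to 22 and X were compared, 21708 for p63 and 39462 for ZNF148; 214 and 207 rows lie elsewhere.

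Each row counted as 1 summit. Pileup and background were solved from fold = (pileup + 1)/(background + 1) and the Poisson −log10 p of more fragments than the pileup, with whole pileups that met the deposited p within 0.001. The formulas are those known for MACS2, and its settings are not given. On simulated rows, 21431 of 21431 p63 and 37404 of 37404 ZNF148 pileups were recovered. Library depth itself is unknown. Shares carry 95% Wilson intervals. Overlap code was checked against bedtools 2.31.1. With 1 library per antibody no p-value is given for any comparison. Python 3.11.15, numpy 2.4.6, pandas 2.3.3, scipy 1.17.1 and matplotlib 3.10.9 were used.

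Gene positions are those given with the choice of the interval, without an hg19 annotation, and coordinates were not converted between builds. Transcription directions come from the RefSeq promoter table (FGF3, ANO1, FADD, PPFIA1) or general knowledge. The table held 4 of the 9 genes. The ANO1 entry lies farther from FADD than the ANO1 position used here, and the FGF3 start is not at the coordinate used. The sequences of ANO1 and FGF3 are therefore not shown, and only their GC boxes and base content are given. CCND1, FGF19, FGF4, CTTN and SHANK2 are not in the table. Genes, interval and limits were chosen with earlier results of these data known. Peaks to name were the 10 highest by q in each list, the 5 overlapping pairs with the best worse rank, and the highest by q within 5 kb of each gene or else the nearest; other peaks in the text were chosen after their values were seen.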

Additional observations from a re-analysis of the deposited data

How the results depend on the processing

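No paired analysis was possible because each antibody has 1 library. Of 50 recomputed values, 39 stayed close to the reported one (counts within 1.5 times, medians within the quartiles, shares within the counting interval, background ratios within its quartiles), 11 moved and 0 changed direction. The last count says little, since only the background ratios compare the interval with other summits. Medians over parts of the same summits also stay within such quartiles easily. The p63 count of 59 became 36 between the CCND1 start and the SHANK2 end, 34 in the first Mb and 25 in the second. The ZNF148 count of 239 became 130 in the first Mb, 109 in the second and 105 when scaled to the median background, an alternative chosen after seeing the data that also raised the median fold to 16.0, since it drops the weaker summits. Sharing was 8.47% for p63 and 2.09% for ZNF148 with summits within 100 bp, and 1.69% and 0.418% with summits within 25 bp. The shorter stretches and stricter distances lower these values by construction. The ratio of the interval's median background to that of all summits was 8.18 to 8.93 for p63 and 7.61 to 8.56 for ZNF148 under the alternatives run. Weaker sites are outside both lists, with −log10 q down to 3.01 in p63 and 3.02 in ZNF148.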

Other observations

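The 2 largest p63 pileups on chromosomes 1 to 22 and X lay in the interval, with 295 fragments at the SHANK2 summit (fold 15.0) and 293 at the summit before ANO1 (fold 11.9). The next was a summit on chromosome X with 291 fragments over a background of 1.98, and so a fold of 98.1. In the ZNF148 list the FADD summit, with 273 fragments, was among the 5 largest pileups, after 4 summits with backgrounds of 84.5 to 89.6 fragments and folds of 3.17 to 3.32.

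The largest run of ZNF148 summits no more than 12.5 kb apart held 17, over 37.7 kb within ANO1, with folds of 4.60 to 21.5. Runs of 14 lay before CCND1 (40.3 kb, folds of 3.93 to 48.3), between FGF3 and ANO1 (42.2 kb, 4.09 to 12.1) and beside FADD (24.4 kb, 3.23 to 36.0), and the run around CCND1 held 12 over 17.7 kb. The p63 list had no run of more than 3. The longest stretch of the interval without a p63 summit was 267 kb within SHANK2, and the longest without a ZNF148 summit 75.9 kb.

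The interval's borders are not edges of the signal. The p63 summits on either side of its upper border had a background of 15.6 times the floor inside and 18.0 times outside, with folds of 9.67 and 3.66, and the ZNF148 summits there 15.5 times inside and 14.6 times outside, with folds of 18.6 and 7.68.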
